A study of Mus musculus with 24 samples.

Results

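The metallothioneins measured here were Mt1, Mt2 and Mt3, 3 of the 33000 genes in the deposited count table, taken by symbol. All 3 were counted in each of the 24 libraries. Mt4, the remaining mouse member of the family, was listed at 0 counts in all 24 libraries. The libraries were made by 3'Pool-seq, a pooled method that reads the 3' ends of polyadenylated RNA, from the frontal cortex of 3-month-old mice. There were 3 WT C57BL/6 mice and 3 mice homozygous for GFAP-IL6, a transgene in which the Gfap promoter drives interleukin-6 in astrocytes. The strain of the GFAP-IL6 mice is not given in the sources used here. Each mouse gave 4 libraries, with 2 ng or 1 ng of cDNA in the tagmentation reaction (the transposase step that fragments the cDNA), and each amount was made in a set A and a set B, a letter that the labels do not explain. The mouse was the replicate, n = 3 per genotype, and the comparisons asked whether the genes differed between genotypes, and whether they differed with the amount of cDNA within a mouse.

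Metallothioneins are small, cysteine-rich proteins that bind zinc and copper ions through the thiol groups of their cysteines. In brain, Mt1 and Mt2 are made mostly by astrocytes and are known to be induced by zinc through the transcription factor MTF-1, by glucocorticoids and by inflammatory cytokines including interleukin-6. Mt3 is the form most restricted to the nervous system, is also found in neurons, and is known to respond less to metals. Mt4 is known from stratified squamous epithelium.

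The coding sequences are shown because they give the cysteine codons that define the family, and because they show how far the genes differ where 3' reads can fall. They were read from the first GENCODE vM21 transcript of each gene, with the cysteine codons in capitals.
Mt1: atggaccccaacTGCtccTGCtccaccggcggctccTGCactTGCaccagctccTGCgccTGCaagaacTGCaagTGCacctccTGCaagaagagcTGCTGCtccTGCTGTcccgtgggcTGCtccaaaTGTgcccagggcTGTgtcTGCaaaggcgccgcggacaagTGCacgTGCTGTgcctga
Mt2: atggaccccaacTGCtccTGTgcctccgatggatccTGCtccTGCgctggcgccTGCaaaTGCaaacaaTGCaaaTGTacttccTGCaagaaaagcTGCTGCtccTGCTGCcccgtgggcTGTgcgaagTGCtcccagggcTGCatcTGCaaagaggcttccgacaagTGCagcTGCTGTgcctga
Mt3: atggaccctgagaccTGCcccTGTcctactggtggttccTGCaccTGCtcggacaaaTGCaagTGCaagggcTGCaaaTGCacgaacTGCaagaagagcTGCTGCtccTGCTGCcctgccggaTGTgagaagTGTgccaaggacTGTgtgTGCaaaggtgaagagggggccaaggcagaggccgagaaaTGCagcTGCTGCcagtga
Each of the 3 held 20 cysteine codons, of 61 codons before the stop in Mt1 and Mt2 and of 68 in Mt3. Mt1 and Mt2 were identical at 148 of 186 aligned positions (79.6%). Mt3, which is longer, shared 66.2% of aligned positions with Mt1 and 67.6% with Mt2. Over the last 300 nt of the transcripts no other transcript matched any of them at 97% identity or more over at least 100 nt. A shorter stretch of 77 nt of the last exon of Mt2 was identical to the antisense gene Gm45774, which overlaps Mt2 there and is no separate copy.

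All family members lie in a row on the plus strand of chromosome 8 (GRCm38), each with 3 exons. Mt4 spans positions 94137197 to 94139031, Mt3 94152607 to 94154146, Mt2 94172664 to 94173568 and Mt1 94179082 to 94180327. The whole cluster covers 43131 nt, and the gap between Mt2 and Mt1 is 5513 nt. The antisense gene Gm45774 overlaps 749 nt of Mt2, of which 77 nt are in the last exon of Mt2. It lies on the minus strand, so its 3' end, where this method reads, is at or before the Mt2 start. Strand use in the counting is not given in the sources used here. Any reads of Gm45774 within the overlap could therefore not be told from those of Mt2.

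The promoters of the 3 genes are shown because the metal response element, the site bound by MTF-1, is the textbook control element of the family. The stretches run from 230 bases before to 30 bases after the RefSeq start (GRCm38.p6). Capitals mark the metal response element core, TGCACNC or TGCGCNC on either strand.
Mt1, chr8:94178859-94179118, plus strand: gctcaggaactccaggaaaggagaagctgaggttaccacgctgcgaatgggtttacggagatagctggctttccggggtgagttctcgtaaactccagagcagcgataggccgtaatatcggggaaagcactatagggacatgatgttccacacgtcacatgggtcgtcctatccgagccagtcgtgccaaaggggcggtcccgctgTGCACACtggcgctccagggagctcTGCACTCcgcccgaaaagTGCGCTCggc
Mt2, chr8:94172388-94172647, plus strand: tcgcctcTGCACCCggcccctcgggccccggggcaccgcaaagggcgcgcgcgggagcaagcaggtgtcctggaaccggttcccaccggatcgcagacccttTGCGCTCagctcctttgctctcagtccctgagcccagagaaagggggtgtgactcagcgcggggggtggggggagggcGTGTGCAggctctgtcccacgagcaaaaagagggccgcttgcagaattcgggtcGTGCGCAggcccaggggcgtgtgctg
Mt3, chr8:94152377-94152636, plus strand: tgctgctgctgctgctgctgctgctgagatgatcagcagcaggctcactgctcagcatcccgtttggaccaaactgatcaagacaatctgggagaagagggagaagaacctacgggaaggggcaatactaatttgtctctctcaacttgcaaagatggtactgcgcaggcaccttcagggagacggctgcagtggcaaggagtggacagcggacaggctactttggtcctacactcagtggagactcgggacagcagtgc
In the window searched, from 250 bases before to 50 bases after the start, the core occurred 3 times for Mt1 (at -23, 3 and 21), 4 times for Mt2 (at -223, -128, -50 and 5), once for Mt3 (at 28, past the stretch shown in full) and once for Mt4. Of 32851 promoters searched in the same way, 25.7% held at least 1 core and 1.97% held at least 3. The antioxidant response element core TGACNNNGC occurred once in the Mt2 window, at -79, where it overlapped no metal response element core, and in 12.4% of all promoters. The letters TTCNNNGAA, bound by STAT factors, were not in any of the 4 windows and were in 8.30% of all promoters. Other annotated transcripts of Mt1 start 122 and 152 nt after the RefSeq start and those of Mt2 46 and 242 nt after it, so these windows describe the RefSeq starts alone.

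Depth ranged from 1524165 to 12256374 counts per library and from 7852743 (WT mouse 3) to 37582644 (GFAP-IL6 mouse 3) per mouse after summing its 4 libraries. The transgene label held in every mouse. Il6 had 5, 3 and 0 summed counts in the WT mice and 30, 33 and 163 in the GFAP-IL6 mice, and rose by 4.06 on the log2 scale (SE 0.57, adjusted p = 0.000783, edgeR quasi-likelihood test with Benjamini-Hochberg adjustment). Gfap, the intermediate filament of astrocytes, was at 19.95 ± 3.78 CPM (counts per 1000000 counts of the library, with library totals corrected for composition by TMM) in WT and 110 ± 33.4 in GFAP-IL6 mice (SD, n = 3 each) and rose by 2.44 (SE 0.18, adjusted p = 1.59e-06). Markers of cortical neurons were present, with a summed level of 5 excitatory neuron genes of 610 to 720 CPM in the 6 mice.

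Mt1 had the highest level in CPM of the metallothioneins in both genotypes. Summed per mouse, its level was 1145, 1326 and 1766 CPM in the WT mice and 1238, 1448 and 1428 CPM in the GFAP-IL6 mice. The WT mice held both the lowest and the highest value, and all 3 GFAP-IL6 mice lay between them. The means were 1412 ± 319 CPM in WT and 1371 ± 116 CPM in GFAP-IL6 mice (SD, n = 3).

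Mt2, which like Mt1 stores zinc and defends cells against heavy metals, was at 221, 285 and 409 CPM in the WT mice and at 253, 325 and 301 CPM in the GFAP-IL6 mice. Again the WT values enclosed those of the GFAP-IL6 mice, with means of 305 ± 95.4 and 293 ± 36.8 CPM (SD, n = 3). Mt3, first known as growth inhibitory factor of the brain, was far lower in these libraries. It was at 35.5, 36.4 and 45.9 CPM in WT and at 29.5, 37.2 and 41.7 CPM in GFAP-IL6 mice, with means of 39.3 ± 5.75 and 36.2 ± 6.17 CPM, and the groups overlapped. With 0 counts of Mt4 in the smallest library, a level of up to 1.97 CPM there could not be told from 0, a limit that covers counting error only.

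**Figure D1:**
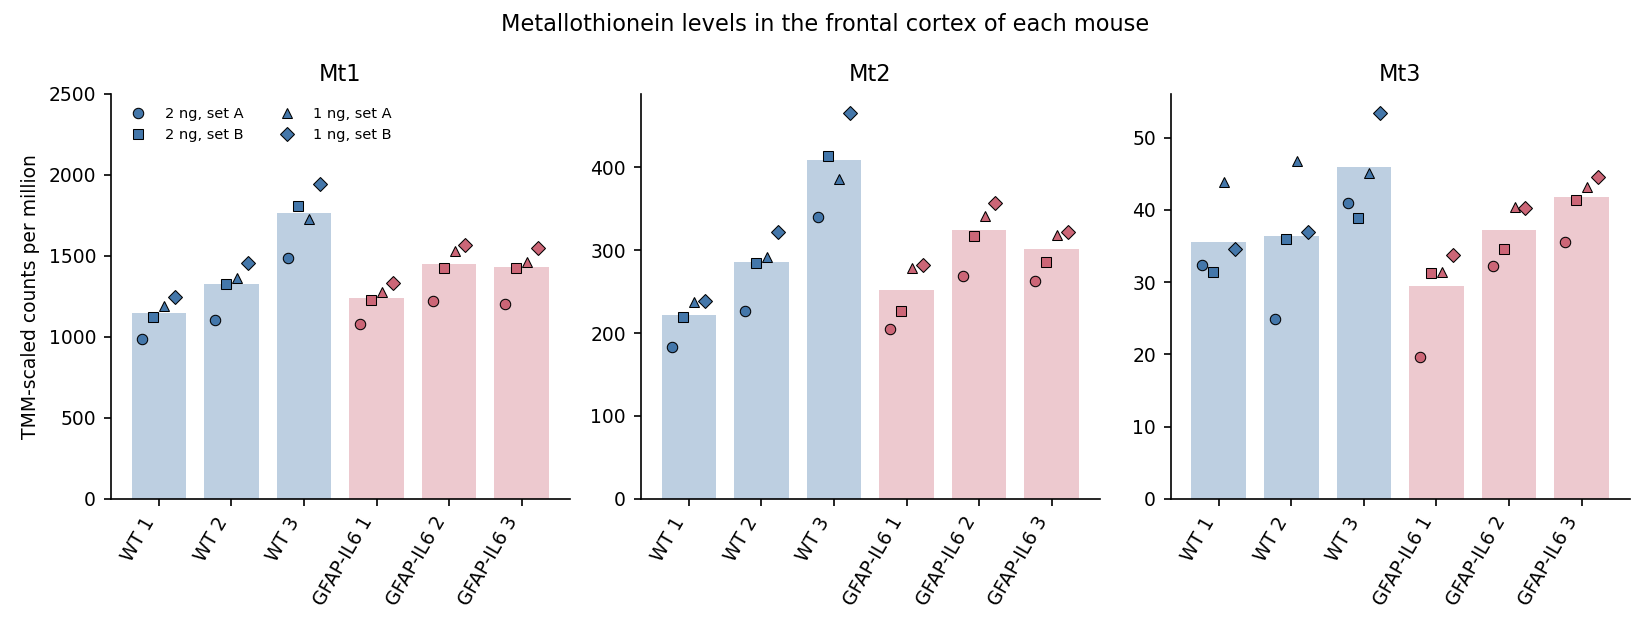
Levels of Mt1, Mt2 and Mt3 in TMM-scaled CPM (linear axes from 0) for the 6 mice; bars are the 4 libraries of a mouse summed, points the single libraries by cDNA amount and set, blue WT and red GFAP-IL6. For all 3 genes the bars of the genotypes overlap, and WT mouse 3 is the highest, at 1766, 409 and 45.9 CPM.

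Per length of the deposited gene model (540, 556 and 538 nt), the order was Mt1, Mt2, Mt3 in every mouse, with no overlap between genes. Mt1 ranged from 2120 to 3270 CPM per kb, Mt2 from 398 to 736 and Mt3 from 54.9 to 85.3. On that scale Mt1 ranked between 22 and 30 from the top of all genes in the 6 mice, Mt2 between 114 and 221, and Mt3 between 981 and 1457. Reads of this method come from the 3' end, so a division by length is no correction for them, and the near equal lengths leave the order as it was in CPM. How far the yield of counted reads differs between these genes was not tested, so the order is one of counts.

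No difference between genotypes was detected for any metallothionein. In the libraries summed per mouse, 0 of 3 passed at an adjusted p under 0.05 by edgeR, against 1.8% of the 14621 genes tested (1.74% of genes tested passed as higher in GFAP-IL6 mice and 0.0547% as lower). None passed at an unadjusted p under 0.05, and none passed by DESeq2. The log2 fold change of Mt1 was -0.04 (SE 0.13, 95% interval -0.32 to 0.24, adjusted p = 0.974). Mt2 was at -0.05 (SE 0.16, -0.40 to 0.30, adjusted p = 0.973) and Mt3 at -0.09 (SE 0.13, -0.37 to 0.19, adjusted p = 0.924). All 3 intervals thus excluded a log2 change of 1 in either direction. The exact permutation test on mean log2 CPM gave p = 1 for Mt1 and Mt2 and p = 0.6 for Mt3 (two-sided, n = 3 mice each, smallest p possible 0.1). The labels do not say how the mice were related, so p-values measure the spread between these mice. In whole tissue fewer cells of a type and less RNA per cell cannot be told apart.

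The sign of these small differences turned without WT mouse 3 and without GFAP-IL6 mouse 1. Without WT mouse 3 the log2 fold changes became 0.15 for Mt1, 0.21 for Mt2 and 0.03 for Mt3, with adjusted p from 0.641 to 0.971, still not past the threshold, and without GFAP-IL6 mouse 1 they became 0.02, 0.04 and 0.02. WT mouse 3 was the highest mouse in 4 of 4 library sets for Mt1 and for Mt2, and in 2 of 4 for Mt3. The same mouse was the shallowest, and its library sums stood apart in markers of choroid plexus, the secretory epithelium of the ventricles: the 6 genes of that list summed to 4071 CPM, against 106 and 160 CPM in the other WT mice and 751, 430 and 78.0 CPM in the GFAP-IL6 mice, with no listed marker at 0 in all mice. Nearly all of these sums was Ttr (named after its values were seen), at 4035 CPM in WT mouse 3 and 743 CPM in GFAP-IL6 mouse 1. The other markers of that list were at 15.5 CPM or less in every mouse. Blood markers were also highest in WT mouse 3 (1034 CPM, against 702 to 958 CPM). The GFAP-IL6 mouse with 751 CPM of choroid plexus markers had the lowest Mt1, Mt2 and Mt3 of its genotype. The part of these cells in the metallothionein levels was not tested.

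Astrocytes, microglia and endothelial cells are among the cells that can make metallothioneins. The 10 astrocyte markers other than Gfap summed to 3636 to 3738 CPM in WT and 3938 to 4108 CPM in GFAP-IL6 mice, ranges that did not overlap, and 0 of the 10 passed by edgeR and 1 by DESeq2. Aldoc, an enzyme of glycolysis, made up 45.5% of the sum in WT mice and 214 of the 354 CPM by which the genotype means of the sum differed. Without it the sums were 1910 to 2071 and 2104 to 2226 CPM, and the means of 8 of the 10 were higher and of 2, Aldh1l1 and S100b, lower in GFAP-IL6 mice. Of the 10, 2, Aqp4 and Gja1 (named, like Aldoc, Aldh1l1 and S100b, after their values were seen), were at an unadjusted p under 0.05. By edgeR 1.74% of all genes tested passed as higher in GFAP-IL6 mice. The 10 microglia and macrophage markers summed to 488 to 543 CPM in WT and to 886 to 1157 CPM in GFAP-IL6 mice, with 7 of 10 passed, all higher. Of 7 endothelial markers 3 passed by edgeR, all higher in GFAP-IL6 mice, and 2 by DESeq2. They summed to 259 to 269 CPM in WT and 322 to 452 CPM in GFAP-IL6 mice. The part of these cells in the metallothionein result was not tested.

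**Figure D2:**
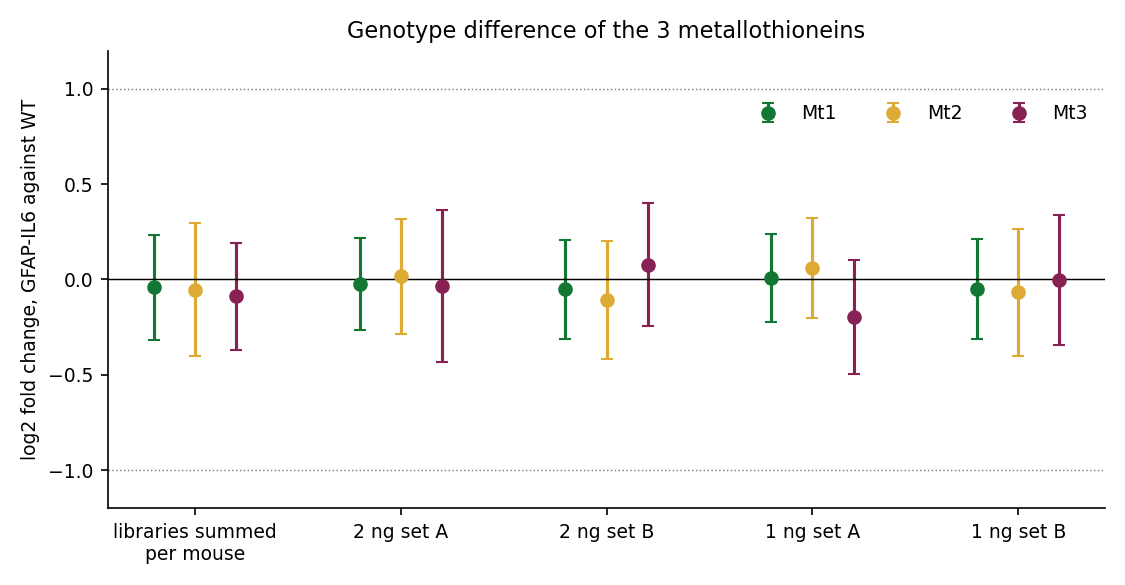
Log2 fold change of Mt1, Mt2 and Mt3, GFAP-IL6 against WT, with 95% intervals from edgeR, in the libraries summed per mouse and in each of the 4 sets of 6 libraries; dotted lines mark a log2 change of 1 in either direction. Every interval spans 0, and the point values lie between -0.20 and 0.08.

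The 4 library sets, each with 1 library of every mouse, gave the same picture. They are repeat libraries of the same mice, so they repeat the measurement, not the mice. Mt1 was at -0.02 and -0.05 in the 2 ng sets A and B and at 0.01 and -0.05 in the 1 ng sets. Mt2 was at 0.02 and -0.11 in the 2 ng sets and at 0.06 and -0.07 in the 1 ng sets. Mt3 had the widest range, from -0.20 (SE 0.15) in the 1 ng set A to 0.08 (SE 0.16) in the 2 ng set B. No member passed by edgeR in any set, where 1.03% (2 ng set A), 1.08% (2 ng set B), 1.1% (1 ng set A) and 1.08% (1 ng set B) of genes did, and none did at an unadjusted p under 0.05 or by DESeq2. The smallest adjusted p was 0.892, for Mt3 in the 1 ng set A.

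Mt1 and Mt2 went up and down together from mouse to mouse. The ratio of Mt2 to Mt1 counts was 0.193, 0.215 and 0.232 in the WT mice and 0.204, 0.224 and 0.211 in the GFAP-IL6 mice, a narrow range within which the genotypes overlapped. A ratio within a library does not depend on how the library is scaled. The ratio of Mt1 to Mt3 was 32.2, 36.4 and 38.5 in WT and 42.0, 38.9 and 34.2 in GFAP-IL6 mice, and that of Mt2 to Mt3 ran from 6.23 to 8.91 over the 6 mice. The log2 ratios differed between genotypes by 0.00026, 0.10 and 0.10, with exact permutation p = 1, 0.4 and 0.7 (two-sided, n = 3 each) and adjusted p = 1 over the 3 ratios.

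Both genes put the mice in 1 order: WT 3, GFAP-IL6 2, GFAP-IL6 3, WT 2, GFAP-IL6 1 and WT 1 from high to low, and WT 1 was the lowest in 4 of 4 sets. For Mt3 the lowest was GFAP-IL6 1 in 4 of 4 sets. The SD between mouse means of log2 CPM was 0.21 for Mt1, 0.30 for Mt2 and 0.22 for Mt3. What remained between libraries after mouse and set were taken out had an SD of 0.029, 0.067 and 0.17 (15 residual degrees of freedom), near the median counting error of 0.020, 0.043 and 0.12. The order of Mt1 and Mt2 among mice was thus repeatable across libraries, while single Mt3 values, from 40 to 558 counts per library, carried more counting error. The labels do not say which steps before sequencing the libraries of a mouse shared, and an effect of a shared step would repeat in the same way.

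**Figure D3:**
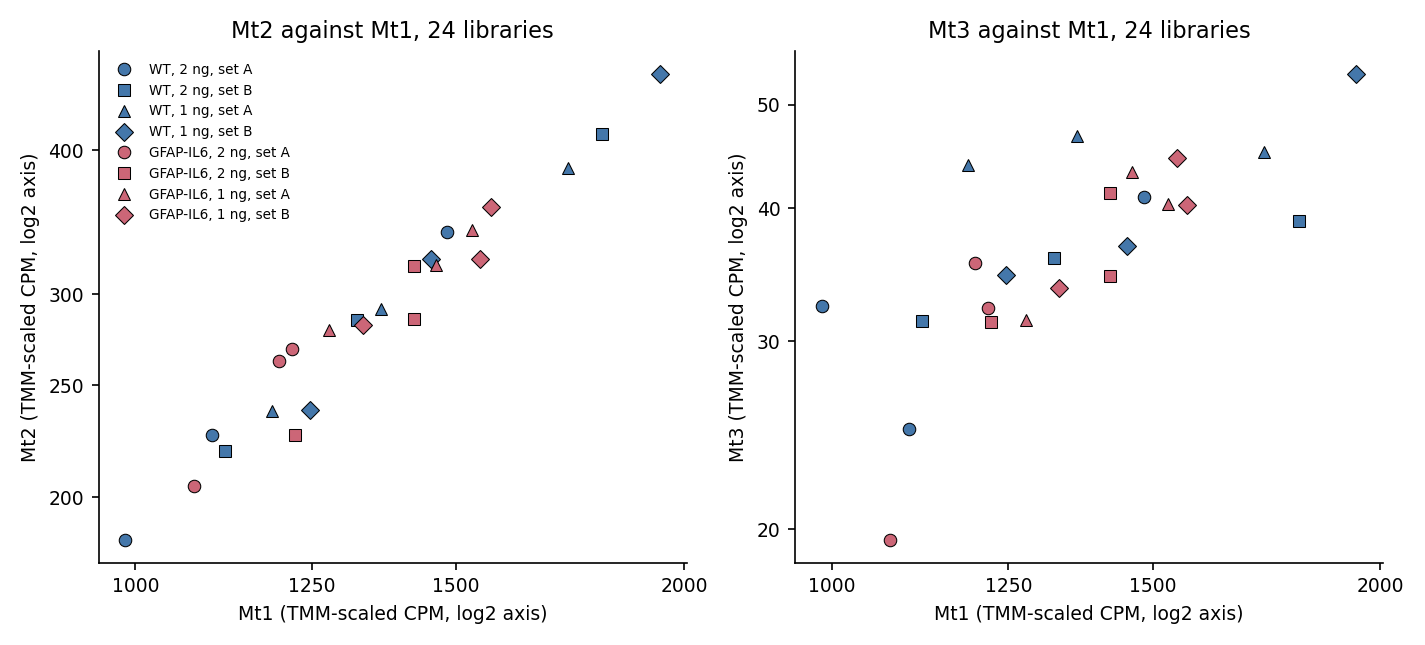
Mt2 (left) and Mt3 (right) against Mt1 in TMM-scaled CPM on log2 axes, 1 point per library, 24 in all, blue WT and red GFAP-IL6, with shapes for cDNA amount and set. Mt2 rises with Mt1 over the range of 988 to 1940 CPM, the genotypes lie on the same band, and Mt3 is more scattered; the 4 libraries of a mouse are repeats and the scaling is shared.

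Likeness to other genes was described over the 6 summed mice, by the root mean square (RMS) difference of log2(CPM + 1) from each gene's WT mean, among 8974 other genes of at least 10 CPM. The gene nearest to Mt2 was Mt1, at an RMS of 0.085, followed by mmu-mir-703, Gm10073, mt-Tf and Rpl30. The 5 genes nearest to Mt1 were mt-Tf, a mitochondrial transfer RNA, Lrrc58, Rps29, Usp45 and Smim15, at 0.039 to 0.060, and Mt2 came at place 31. The median over all genes was 0.235 for Mt1 and 0.306 for Mt2. The 5 nearest to Mt3 were Ssh1, Aldh2, Sik3, Unc79 and Fbxl16, at 0.039 to 0.053, with Mt1 at place 399 and Mt2 at place 2051. With 6 mice, many genes lie this close, and no test was made.

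Few of the genes that share regulators or metals with the metallothioneins passed between genotypes. As background for the lists below, 1.8% of the 14621 genes tested passed by edgeR and 1279 were at an unadjusted p under 0.05. Of MTF-1 and its known targets, 0 of 5 tested passed by edgeR or DESeq2, 1 was at an unadjusted p under 0.05, and their median log2 fold change was -0.19, beside -0.01 over all genes. Gclc, a subunit of the first enzyme of glutathione synthesis, was at -0.31 (adjusted p = 0.404), and Slc30a1, the zinc exporter of the plasma membrane, at -0.28 (adjusted p = 0.765). Mtf1 itself was at -0.19.

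Of 8 zinc exporters tested, 0 passed by either tool and 1, Slc30a6, was at an unadjusted p under 0.05 (log2 fold change 0.25, adjusted p = 0.565). Of 12 zinc importers, 0 passed by either tool and 2 were at an unadjusted p under 0.05. These were Slc39a8, a transporter of zinc and manganese, at 1.03 (2.22 ± 1.05 CPM in WT and 4.78 ± 0.81 in GFAP-IL6 mice, adjusted p = 0.129), and Slc39a2 at 0.63 (adjusted p = 0.395). The medians of both lists, -0.04 and 0.04, lay near that of all genes.

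In the copper list 1 of 13 genes passed. Cp, which encodes the copper-carrying ferroxidase ceruloplasmin, rose from 5.24 ± 1.64 to 9.85 ± 1.26 CPM (log2 fold change 0.87, SE 0.20, adjusted p = 0.0408). That call was lost without WT 1 (adjusted p = 0.0931), WT 3 (0.0651), GFAP-IL6 2 (0.164) or GFAP-IL6 3 (0.266). Slc31a2, a copper transporter, was at 0.41 (adjusted p = 0.538). Of 13 glucocorticoid-responsive genes 0 passed by edgeR and 1 by DESeq2, with 3 at an unadjusted p under 0.05. Nfkbia, the inhibitor of NF-kappa-B, was at 0.44 (adjusted p = 0.0864) and Zbtb16 at 0.30 (adjusted p = 0.266). Of 10 NRF2 targets, the genes of the oxidative stress response, 0 passed by either tool and 1, Gclc again, was at an unadjusted p under 0.05. Hmox1, the inducible enzyme that degrades haem, was at 0.62 (SE 0.40, adjusted p = 0.741), with means of 0.79 and 1.15 CPM.

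The interleukin-6 and STAT3 list differed from these. Of its 17 genes 5 passed by edgeR, all higher in GFAP-IL6 mice, against 1.74% of all genes tested that passed as higher. At an unadjusted p under 0.05 there were 11, and 7 passed by DESeq2. Passed or not, 12 had a log2 fold change above 0 and 5 below 0, with a median of 0.53. Lrg1, a secreted acute-phase glycoprotein, rose by 2.61 (12.96 ± 2.51 to 80.5 ± 13.1 CPM, adjusted p = 8.73e-08). Osmr, the oncostatin M receptor, rose by 2.08, Cebpd, a transcription factor of the acute phase, by 1.25 and Socs3, the feedback inhibitor of the receptor, by 1.62. Serpina3n, named after its values were seen, rose by 0.98. The Socs3 call (adjusted p = 0.0329) was lost without WT 1, WT 2, GFAP-IL6 2 or GFAP-IL6 3, where adjusted p ranged from 0.0557 to 0.572. Mt1 and Mt2 stood at -0.04 and -0.05 in the same fit.

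**Figure D4:**
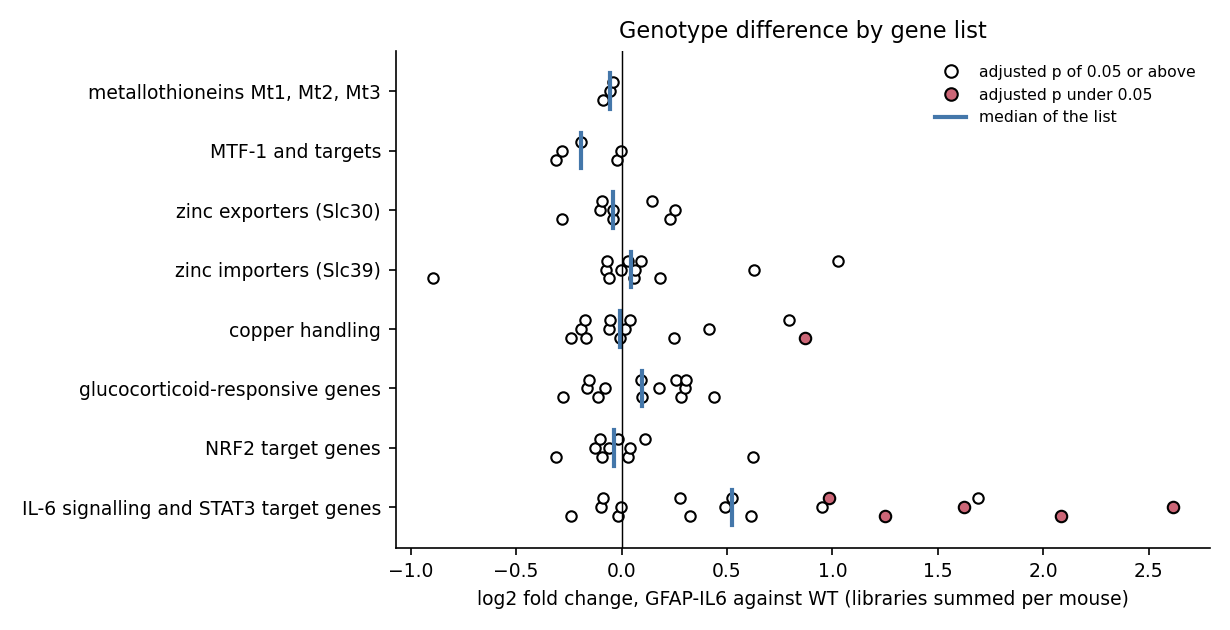
Log2 fold change, GFAP-IL6 against WT in the libraries summed per mouse, of every tested gene in each list; filled points passed at an adjusted p under 0.05 by edgeR, open points did not, and blue bars are the list medians. The 3 metallothioneins lie at -0.09 to -0.04, and filled points appear for Cp in the copper list and for 5 genes of the interleukin-6 and STAT3 list.

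All 3 genes were lower at 2 ng than at 1 ng of cDNA in both sets, and past the threshold in set A. There edgeR gave a log2 difference for Mt1 at -0.28 (SE 0.09, adjusted p = 0.0235), Mt2 at -0.33 (SE 0.11, adjusted p = 0.0408) and Mt3 at -0.44 (SE 0.12, adjusted p = 0.0127). In that comparison 18.1% of the 12225 genes tested passed, and 9.08% of the genes tested passed as lower at 2 ng. By DESeq2, Mt2 did not pass (adjusted p = 0.208). In set B the differences had the same sign and were smaller, at -0.12, -0.18 and -0.16, and 0 of 3 passed by edgeR or by DESeq2 or at an unadjusted p under 0.05 (adjusted p = 0.572, 0.512 and 0.483), against a background of 6.33% of 12169 genes, with 3.71% passed as lower.

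Within mice the shift was seen in every pair. The geometric mean of Mt1 in set A was 1414 CPM at 1 ng and 1168 CPM at 2 ng. The log2 difference per mouse ran from -0.33 to -0.22, with a mean of -0.28 ± 0.04 (SD, n = 6 mice). In set B it ran from -0.15 to -0.11, with a mean of -0.13 ± 0.02. The 6 values of Mt1 lay close together in both sets and none came near 0. The mean for Mt2 was -0.33 ± 0.09, and in the other set -0.19 ± 0.07. Mt3 averaged -0.46 ± 0.29 and -0.18 ± 0.15, with WT 2 lowest in set A, at -0.91 (46.7 CPM at 1 ng and 24.8 CPM at 2 ng). For each gene and set 6 of 6 mice were lower at 2 ng, with exact p = 0.03125 over 64 sign flips (two-sided, the smallest p possible) and adjusted p = 0.03125 over the 6 tests. The method pools samples before tagmentation, and the labels do not say which libraries shared a pool. Where the mice of a set and amount shared a reaction, these p-values measure the spread between mice, not between tagmentation reactions. An effect of the amount and an effect of the reaction could then not be told apart.

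With the mouse as a block in the edgeR fit, since both libraries of a pair came from 1 mouse, the members were called in 5 of 6 tests, against 31.9% of all genes tested in set A (15.9% as lower at 2 ng) and 21.4% in set B (10.7% as lower). In set A Mt1 was at -0.29 (adjusted p = 2.26e-25), Mt2 at -0.33 (7.42e-16) and Mt3 at -0.44 (1.54e-05). In set B Mt1 was at -0.12 (7.14e-10), Mt2 at -0.17 (9.00e-07) and Mt3 at -0.15, not past the threshold (0.165). The limit given above for mice that shared a tagmentation reaction holds for these p-values and for those of the fit without the block. For set A the block raised the count of genes called from 2213 to 3894, and for set B from 770 to 2603. Without the block, leaving out a mouse took the set A call from Mt1 for WT 2, GFAP-IL6 2 and GFAP-IL6 3 (adjusted p 0.0633 to 0.0799), from Mt2 for those and GFAP-IL6 1 (0.084 to 0.119) and from Mt3 for WT 2 (0.0928).

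**Figure D5:**
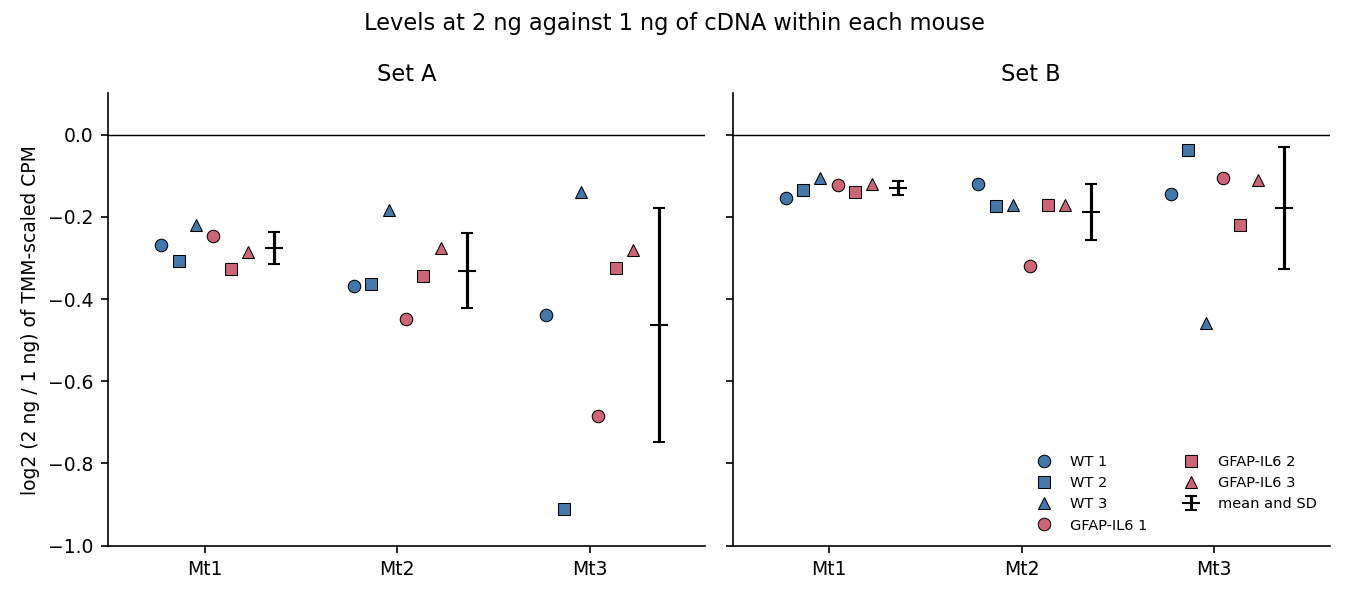
Log2 ratio of the 2 ng to the 1 ng library of the same mouse, in TMM-scaled CPM, for Mt1, Mt2 and Mt3 in sets A and B; each symbol is 1 mouse, blue WT and red GFAP-IL6, and the black bars are the mean and SD over 6 mice. Every point is below 0, and the Mt1 points are the closest together.

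Genes of like transcript length differed between the amounts in both directions, more of them as lower at 2 ng in set A. Of 118 protein-coding genes of 450 to 650 nt, with the members left out, 38 passed as lower and 12 as higher without the block, and 57 and 20 with it. Over all genes tested 9.08% passed as lower and 9.02% as higher without the block, and 15.9% and 16% with it. Passed or not, 72.0% had a value below 0 and the median was -0.16, beside 48.9% and 0.01 over all genes tested. In set B 14 of 119 such genes passed as lower and 12 as higher (31 and 19 with the block), against 3.71% and 2.62% of all genes tested (10.7% and 10.6% with the block), 55.5% were below 0 and the median was -0.02. In set A 13.4% of all genes tested had a lower value than Mt1, 10.5% than Mt2 and 6.11% than Mt3, and in set B 25.1%, 17.4% and 19.3%. The part of transcript length in the shift was not tested.

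In the copper list genes passed mostly as lower at 2 ng, and in each fit at least as many did not pass. Without the block, 5 of 12 tested passed in set A, all lower (Slc31a2, Atox1, Cox17, Sco2 and Commd1, named after their values were seen), 7 did not, and 3 had values above 0, up to 0.57, against 9.08% of all genes tested that passed as lower. In set B 2 passed, Cox17 and Commd1, both lower, and 10 did not, against 3.71%. With the block, 5 passed as lower and 1, Steap2, as higher in set A, against 15.9% and 16% of all genes tested. In set B 4 passed as lower with the block, against 10.7%. Atox1 and Cox17 are copper chaperones, and Cox17 had the lowest value of the list, -1.09 in set A and -0.70 in set B. Of 5 genes tested with MTF-1 and its targets, 2 passed in set A without the block, against 18.1% of all genes tested. They went in opposite directions, Mtf1 at -0.38 (adjusted p = 0.035) and Slc30a1 at 0.55 (adjusted p = 0.0338). In set B 0 passed by edgeR, against 6.33% of all genes tested, and 0 by DESeq2 or at an unadjusted p under 0.05. With the block 3 passed in set A (Mtf1 and Selenoh lower, Slc30a1 higher), against 31.9% of all genes tested. In set B 0 passed by edgeR with the block, against 21.4%, with 2 at an unadjusted p under 0.05.

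Counts of blood marker genes also differed with the amount, between libraries of the same mouse. The 5 blood genes summed to 892 to 1270 CPM at 1 ng and 293 to 440 CPM at 2 ng in set A, and to 983 to 1410 and 463 to 665 CPM in set B, lower at 2 ng in 6 of 6 mice in both sets. Of the 5, 4 globin genes passed as lower in each set with or without the block. Of all genes tested 9.08% passed as lower in set A and 3.71% in set B, and 15.9% and 10.7% with the block. The list medians without the block were -1.57 and -1.04. None of the 5 was at 0. Both libraries of a pair came from the same mouse, so these differences do not measure the amount of blood in the tissue. What the shift of these genes shares with that of the metallothioneins was not tested.

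The genotype difference itself did not depend detectably on the amount of cDNA. In the test of the interaction, with sets A and B summed and the mouse in the model, Mt1 was at -0.01 (95% interval -0.07 to 0.04), Mt2 at -0.03 (-0.12 to 0.06) and Mt3 at 0.09 (-0.14 to 0.32), each with adjusted p = 0.9999 by edgeR. Of 13961 genes tested 0 passed (0% background), 538 were at an unadjusted p under 0.05, and 0 passed by DESeq2. The 2 ng fall of Mt1 in set A averaged -0.26 in the WT and -0.29 in the GFAP-IL6 mice.

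Mt1 and Mt2 were lower in set A than in set B at both amounts. At 2 ng the set A library of a mouse had less Mt1 than its set B library in 6 of 6 mice (mean log2 difference -0.23 ± 0.04) and less Mt2 in 6 of 6 (-0.23 ± 0.08). At 1 ng they were also lower in 6 of 6 mice, with differences of -0.08 ± 0.05 and -0.09 ± 0.10. For Mt3 4 of 6 mice were lower in set A at 2 ng and 3 of 6 at 1 ng. No test was made of the set, and the geometric mean levels over 6 mice were thus lowest in the 2 ng set A for each gene (1168, 243 and 30.1 CPM).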

How the data were processed

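Total RNA was extracted from frontal cortex and sequenced by 3'Pool-seq in 24 libraries of 6 mice. The authors trimmed reads at poly(A) runs, aligned them with STAR 2.4 to mm10 and deposited raw read counts per gene of GENCODE vM6, made with featureCounts from unique reads; strand use is not given in the sources used here. The reads carry no molecular identifiers, so intervals and limits cover counting error only. Groups were taken from the labels, which do not say whether the mice shared a litter or batch.

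Deposited counts were summed over the 4 libraries of a mouse, or used per library, and tested with edgeR 4.0.16 in R 4.3.3 (quasi-likelihood test, TMM scaling, filterByExpr, Benjamini-Hochberg adjustment over all genes tested, adjusted p under 0.05). The methods of the study name DESeq2, used here in version 1.42.0 as an alternative. The other alternatives were DESeq2 size factors, no filter, at least 10 counts in every library, a replicate block, down-sampling and each mouse left out. Single values were tested by exact permutation. The scripts were tested on simulated data. Libraries of 1 mouse at 2 ng and 1 ng deviated together (r from 0.285 to 0.506 across genes, in each mouse and set), so the mouse block is given beside the fit without it, which was the main one.

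The members, gene lists and naming rule were chosen with earlier results of these data known. The rule named the 3 members, Mt4, Il6 and Gfap, every list gene that passed with an absolute log2 fold change above 1, otherwise the 2 with the smallest adjusted p, and for each member the 5 nearest genes. Sequences and positions came from RefSeq (GRCm38.p6; 4 of 4 family members matched) and GENCODE vM21 (GRCm38), and copies were sought with BLAST 2.17.0. Lengths are those deposited with the counts.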

Additional observations from a re-analysis of the deposited data

Results flagged for a closer look

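One metallothionein value stood apart from the other libraries of its mouse. Mt3 in the 2 ng set A library of GFAP-IL6 mouse 1 was at 19.6 CPM, from 40 counts, while the other 3 libraries of that mouse lay between 31.3 and 33.7 CPM. The gap to the nearest was 0.83 of the range, just above the 95% critical value of Dixon's test for 4 values. Of 18 sets of 4 libraries examined this was the only one, and chance alone passes the limit in about 1 of 20. The 2 ng set A was also the lowest for Mt3 over all mice, at a geometric mean of 30.1 CPM against 35.4 to 41.4 CPM. Dixon's test takes no account of such a difference between library sets.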

How the results depend on the processing

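The genotype result held in its call. In 168 fits of Mt1, Mt2 or Mt3 under alternatives, 0 passed at an adjusted p under 0.05 by edgeR or DESeq2 (lowest 0.4999), with values from -0.31 to 0.28. The signs of such small differences were not fixed. Mt2 in the 2 ng set A turned to -0.021 by DESeq2, Mt3 in the 1 ng set B to 0.0045 with at least 10 counts per library, Mt1 and Mt2 by mouse to 0.0088 and 0.0091 on unscaled library totals, and the Mt2 to Mt1 ratio to -0.029 in 2 ng libraries alone. The cause was not tested.

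Leaving out 1 mouse gave the following ranges. Summed per mouse, Mt1 ran from -0.17 to 0.15, Mt2 from -0.24 to 0.21 and Mt3 from -0.21 to 0.031, and sign turned without WT 3 or GFAP-IL6 1. In the 2 ng set A they ran from -0.15 to 0.17, -0.17 to 0.28 and -0.22 to 0.13, and in the 2 ng set B from -0.20 to 0.15, -0.31 to 0.15 and -0.063 to 0.14. In the 1 ng set A Mt1 ran from -0.11 to 0.17 and Mt2 from -0.10 to 0.26, and in the 1 ng set B they ran from -0.18 to 0.15, -0.28 to 0.21 and, for Mt3, -0.12 to 0.18. For the interaction Mt1 ran from -0.027 to 0.0074 and Mt2 from -0.075 to 0.0035. The log2 ratio difference ran from -0.069 to 0.061 for Mt2 to Mt1 and from -0.038 to 0.22 for Mt2 to Mt3. For cDNA amount in set A the ranges were -0.30 to -0.27, -0.36 to -0.31 and -0.49 to -0.35, with calls lost for the mice named above. Genes past the threshold and a log2 change of 1 by genotype numbered 180, and 106 to 201 without 1 mouse (106 without GFAP-IL6 3). Amount calls in set B numbered 770, and 485 to 811 (485 without WT 2). Interaction calls numbered 0, and 0 to 1 (1 without WT 1), and 1 with no filter.

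For cDNA amount, DESeq2 gave -0.33 for Mt2 in set A without a call. The mouse block gave -0.12 for Mt1 and -0.17 for Mt2 in set B, both then called, and 3894 and 2603 genes in sets A and B. WT and GFAP-IL6 mice share only a replicate number. Deviations of same-numbered mice correlated at -0.073, -0.0091 and 0.0043, and every mouse correlated best with a mouse of another number. A replicate block on the number gave 149 genes in place of 180 and no call of a metallothionein. The lowest Mt3 library held 40 counts, and each genotype had 3 mice.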
